A study of Homo sapiens with 12 samples.

Results

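The genes described here are 40 members of the ATF4 response and of the cell's amino acid supply: stress factors, stress effectors, enzymes that make serine, glycine, asparagine, proline and cysteine, and amino acid transporters. They were taken by name from a table of 62069 Ensembl gene identifiers, and all 40 names matched. A filter on low values (at least 10 in at least 3 libraries) kept 19281 genes, among them 38 of the members. STC2 and GPT2 did not pass it, so counts over members below are over those 38. The members were named without use of measured values in the rule, although they were proposed with earlier results of these data in view.

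Poly-A RNA was sequenced from CUTLL1, an established line of human T-cell leukaemia (spelled CUTTL1 in part of the labels) that depends on a rearranged, active NOTCH1 gene. The labels give 4 groups of 3 libraries: cells in the solvent DMSO for 12 h, cells in 1 µM Compound E for 12 h, and the same pair at 48 h. Compound E is an inhibitor of gamma-secretase (GSI), the protease that frees the active part of NOTCH1. All groups share the line, a medium of RPMI with fetal bovine serum and glutamine, and the seeding density, and the labels do not say whether libraries of a group came from separate cultures. The p-values therefore measure only the spread between these libraries, which may be technical.

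When amino acids run short, or unfolded protein builds up in the endoplasmic reticulum, kinases phosphorylate the initiation factor eIF2. Most translation then slows while that of ATF4 increases. ATF4, often paired with a C/EBP protein, binds composite sites near genes that import and make amino acids, load tRNA and restrain mTORC1, and it also induces factors such as DDIT3 and TRIB3 that feed back on the response. Leukaemic T cells use the same transporters and serine enzymes for growth, and asparagine synthetase is known in this disease because its level bears on the use of asparaginase.

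The values are read counts divided by a size factor of each library, called normalised read counts below, and libraries held between 73939612 and 160702764 recovered reads. NRARP, a direct NOTCH1 target that checks the treatment, read 36766, 49346 and 40943 in DMSO at 12 h, 16831, 25383 and 23575 in GSI at 12 h, 3186, 3564 and 2340 in DMSO at 48 h, and 1995, 1776 and 1333 in GSI at 48 h. It was lower under the GSI label at each time, but the difference between the time labels was larger than that between the treatment labels. Groups are therefore given as labelled throughout, and every direction below rests on those labels. The T-cell gene CD3E stood between 53532 and 76042 in all libraries. Among markers of other cell types, MS4A1 (B cells), FCGR3A (natural killer cells and monocytes), EPCAM (epithelium) and PPBP (platelets) were at 0 in all 12. Of 13 such markers 4 were kept. The B-cell gene CD79A read from 659.5 to 3042. The others kept were low: CD14 (monocytes) at 9.4 to 33.6, KRT8 (epithelium) at 11.7 to 36.3 and DCN (stroma) at 1.33 to 32.5. The summed level of the 13 ran from 731.1 to 2566.7 in DMSO at 12 h, 902.8 to 1147.7 in GSI at 12 h, 864.2 to 3092.0 in DMSO at 48 h and 903.4 to 992.9 in GSI at 48 h, and its part in the results was not tested.

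One library stood apart in these genes and is described ahead of the comparisons. The GSI 12 h library numbered 3 held the highest value of all 12 libraries for 33 of the 38 members, against 12.4% of all genes kept. The 5 exceptions were the cytosolic folate enzymes SHMT1 and MTHFD1, the proline enzyme ALDH18A1, the aspartate aminotransferase GOT1 and the glutamine carrier SLC38A2. Its median member lay 1.39 (log2) above the mean of the other 2 libraries of its group, against −0.002 over all genes, and 24 of 38 members lay more than 1 above it, against 3.54% of all genes. The GSI 48 h library numbered 3 showed the same to a lesser extent, with a median of 0.80 and 16 of 38 members more than 1 above, against 2.15% of all genes. In both DMSO groups the library numbered 3 had 0 members that far above the others, with medians of 0.09 at 12 h and 0.18 at 48 h. NRARP in the GSI 12 h library numbered 3 lay between its values in the other 2. At the other end, the GSI 48 h library numbered 1 was the lowest of 12 for 19 of 38 members, against 13.2% of all genes.

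**Figure D1:**
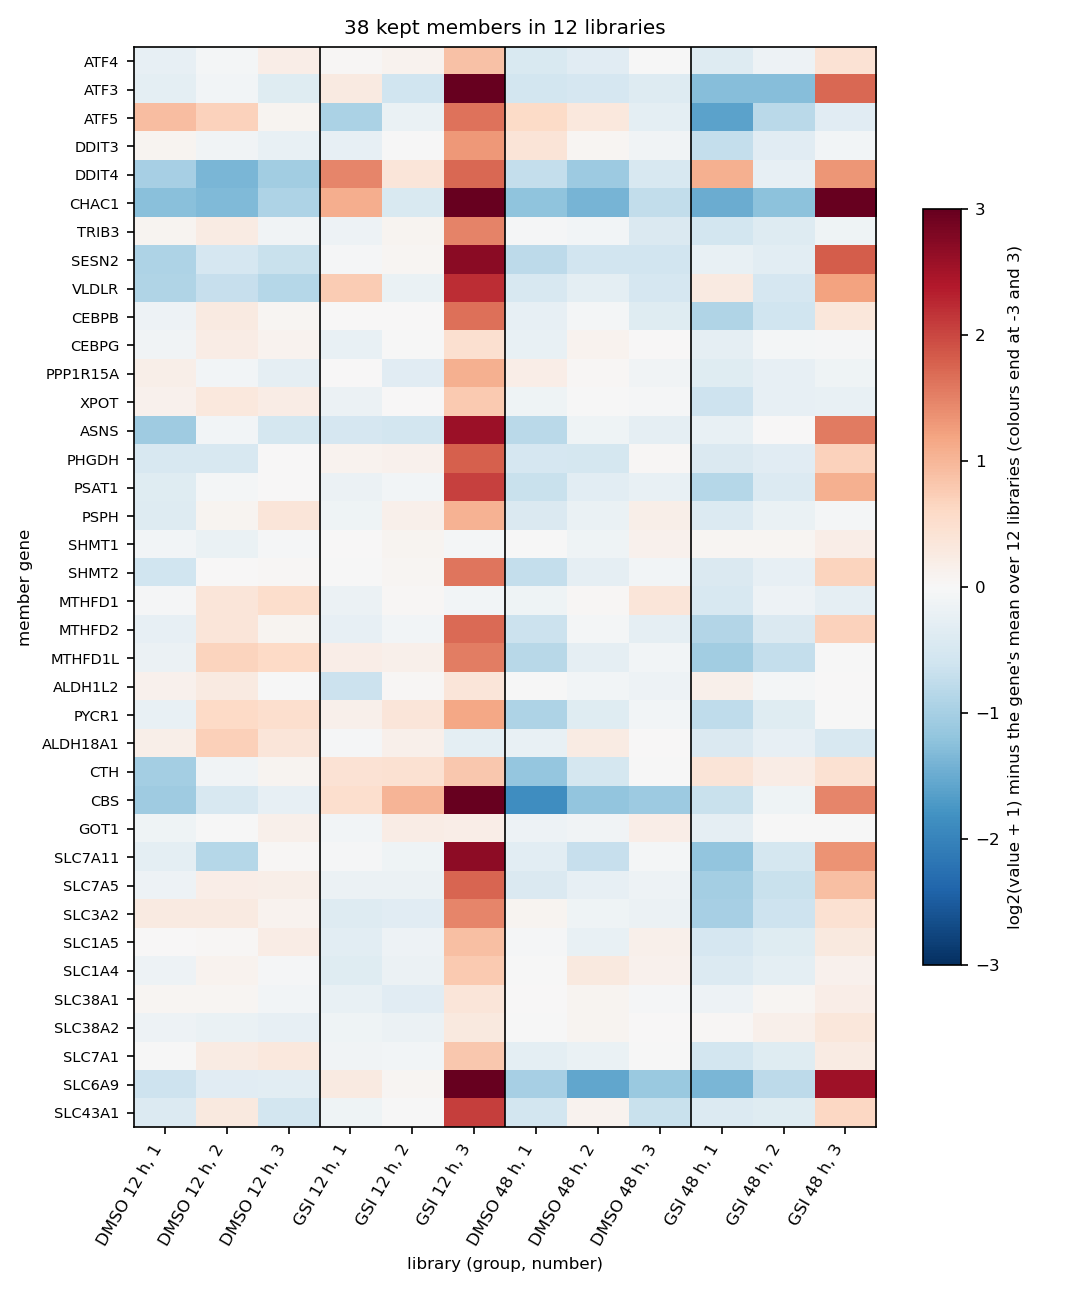
Colour gives log2(value + 1) of each kept member minus its mean over the 12 libraries. Members are in rows in the order they were named, not sorted by role, and libraries in columns by group and number. The GSI 12 h column numbered 3 is red in nearly every row, holding the highest value for 33 of 38 members, and the GSI 48 h column numbered 3 is red in fewer.

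Each treatment result is therefore given with all 12 libraries and also without both GSI libraries numbered 3, an alternative chosen after this was seen. With all libraries, limma called 5 of 38 members at 12 h at an adjusted p under 0.05, while 21.5% of all genes were called. Of these 4 were higher, against 10.1% of all genes, and 1 was lower, against 11.4%. The member median was 0.38 (log2) against 0.00 over all genes, and 9 members had an unadjusted p under 0.05. On recovered reads edgeR called 6 members (21.8% of all genes) and DESeq2 called 6 (25.9% of all genes). DESeq2 gave no adjusted p for 3 members in each comparison, here and below, and these count as not called. The limma count ran from 1 to 7 when 1 library was left out: leaving out number 2 of DMSO 12 h or number 3 of GSI 12 h gave 1, number 1 of GSI 12 h gave 2, numbers 1 or 3 of DMSO 12 h or number 1 of GSI 48 h gave 3, number 2 of GSI 12 h gave 7, and any other library gave 4 or 5. Leaving out both libraries numbered 3, limma called 6 of 38, 5 higher and 1 lower, against 10.3% of all genes, and the member median was −0.02. At 48 h limma called 1 member of 38, against 9.68% of all genes called and 4.33% called higher, with a member median of 0.09. There edgeR called 1 (9.95% of all genes) and DESeq2 called 3 (16.8%). Here leaving out number 1 or 2 of DMSO 48 h, or number 1 or 3 of GSI 48 h, gave 0 calls by limma, number 1 of DMSO 12 h gave 2, number 3 of GSI 12 h gave 3, and any other library gave 1. Without both libraries it again called 1, but another gene, against 0.768% of all genes, with a median of −0.19. The shares of members called with all libraries were thus near or under the background, and what follows is about single genes and about the spread between GSI libraries.

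The promoters were read for the site that ATF4 and C/EBP proteins share, which several of these genes are known to carry. Its core, TGATGNAA on either strand, was searched in windows from 250 bases before to 50 bases after each transcript start in RefSeq (GRCh38.p14, a later build than the authors' hg19, used here for sequence only). The table held windows for 34 of the 40 members. The core was present for 11 of these 34 (32.4%), against 4.46% of all 27305 genes with a window. Members have more listed starts per gene than other genes: counted by window it was in 13 of their 56 (23.2%), against 3.62% of all 35116 windows. In the 250 bases before the start alone it was present for 7, or 20.6%, against 3.89%. A match is a run of letters, not a site shown to be bound. These 7 are printed along the strand of the gene, with the core in capitals, to show where the letters lie. The search fixed the core, so its likeness among them is no finding.
CHAC1: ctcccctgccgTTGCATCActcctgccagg
ASNS: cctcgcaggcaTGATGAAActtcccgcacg
ATF3: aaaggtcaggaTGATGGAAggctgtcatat
CEBPG: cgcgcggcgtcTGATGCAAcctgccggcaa
SLC1A5: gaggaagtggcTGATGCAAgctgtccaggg
GOT1: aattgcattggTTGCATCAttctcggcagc
MTHFD1L: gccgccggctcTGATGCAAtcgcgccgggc
The stretches lie at chr15:40953251-40953280 (CHAC1, plus strand), chr7:97872458-97872487 (ASNS, minus strand), chr1:212565205-212565234 (ATF3, plus strand), chr19:33374060-33374089 (CEBPG, plus strand), chr19:46784893-46784922 (SLC1A5, minus strand), chr10:99430804-99430833 (GOT1, minus strand) and chr6:150866346-150866375 (MTHFD1L, plus strand), upstream of a RefSeq transcript start. The core began 68 bases before a start of ASNS, 209 before that of CHAC1, 191 before that of ATF3, 42 before that of CEBPG, 97 before that of SLC1A5 and 198 before that of GOT1. For MTHFD1L the core began 129 or 90 bases before a start, depending on the start taken, and lay after another of its listed starts. Each distance is to the start whose window held the match, and SLC1A5 and ASNS have other listed starts.

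Of the 6 stress factors limma called 0 at either time with all libraries (0 and 1 at an unadjusted p under 0.05 at 12 and 48 h, and 0 by edgeR and by DESeq2), and the group median of the treatment difference was 0.40 (log2) at 12 h and −0.13 at 48 h. ATF4 (ENSG00000128272) itself, whose control is mostly at translation, read 35319, 40289 and 48476 in DMSO at 12 h and 43307, 45118 and 78179 in GSI at 12 h. Its 48 h values were 30523, 33248 and 42037 in DMSO and 32483, 38129 and 57164 in GSI. Its groups overlapped at both times, and the library numbered 3 was the highest of every group. The treatment difference was 0.38 ± 0.24 (log2 ± SE) at 12 h (limma adjusted p = 0.257) and 0.24 ± 0.24 at 48 h (limma adjusted p = 0.510). Neither difference was called in this fit. ATF4 has near-identical pseudogene copies, which may share its reads.

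ATF3, a stress-induced partner of ATF4 and of AP-1 proteins, varied more than any other stress factor. It read 78.7, 90.9 and 75.1 in DMSO at 12 h, and 116.6, 63.3 and 980.5 in GSI at 12 h. At 48 h ATF3 read 65.1, 67.5 and 73.0 in DMSO and 39.5, 39.3 and 321.9 in GSI. The GSI library numbered 3 was thus 10.9 times the mean of the other 2 at 12 h and 8.17 times at 48 h. The other GSI libraries were below every DMSO library at 48 h. Its treatment difference of 1.24 ± 0.87 at 12 h (limma adjusted p = 0.321) became 0.08 without both GSI libraries numbered 3.

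ATF5, a relative of ATF4 that is translated in the same way and acts in the mitochondrial stress response, went the other way in the remaining libraries. It read 9367, 7978 and 5187 in DMSO and 2537, 4286 and 15257 in GSI at 12 h, then 7334, 6177 and 4045 in DMSO and 1614, 2826 and 3912 in GSI at 48 h. All 3 GSI libraries at 48 h lay below all 3 DMSO libraries, while at 12 h the GSI library numbered 3 was the highest of all and the other 2 the lowest of that time. The difference was −1.12 ± 0.51 at 48 h (limma adjusted p = 0.163) and −0.41 ± 0.51 at 12 h (limma adjusted p = 0.597). It was −1.41 and −1.14 without both GSI libraries numbered 3, and without all 4 libraries numbered 3 limma called it lower at 12 h (adjusted p = 0.0417) and at 48 h (adjusted p = 0.0494). That fit called 4.62% of all genes at 12 h and 0.731% at 48 h. A fit of only the groups compared, with every library of that time kept, called ATF5 lower at 48 h (−1.12 ± 0.28, limma adjusted p = 0.0278). At 12 h it did not (limma adjusted p = 0.620), and it called 13.5% and 12.8% of all genes at 12 and 48 h. The same fit called DDIT4, CBS and CTH higher at 48 h (limma adjusted p = 0.0176, 0.0424 and 0.0492). At 12 h it called DDIT4, VLDLR and CBS higher. It did not call CTH or ALDH18A1 at 12 h (limma adjusted p = 0.0624 and 0.0648), which the fit of all 12 libraries did. DDIT3, the pro-apoptotic factor CHOP, ranged from 1403 to 4112 in GSI and from 1437 to 1782 in DMSO at 12 h. CEBPB, a C/EBP protein that dimerises with ATF4, ranged from 1480 to 4678 in GSI and from 1322 to 1793 in DMSO at 12 h. CEBPG, which lacks a transactivation domain and pairs with ATF4 in amino acid control, moved least, from 6745 to 10914 in GSI and from 7339 to 9176 in DMSO.

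The stress effectors held the clearest treatment difference of the 40 members. Limma called 2 of the 7 kept higher at 12 h and 1 at 48 h, against 10.1% and 4.33% of all genes. On recovered reads edgeR called 4 and 1 of them, against 21.8% and 9.95% of all genes called. DESeq2 called 3 and 2, against 25.9% and 16.8%. The group median was 1.61 (log2) at 12 h and 0.75 at 48 h. DDIT4 (ENSG00000168209), also called REDD1, restrains mTORC1 under low oxygen, starvation and other stresses. It read 17486, 13414 and 16955 in DMSO and 96054, 44650 and 114185 in GSI at 12 h. At 48 h it read 21017, 16272 and 24922 in DMSO and 73075, 29167 and 87014 in GSI. The groups did not overlap at either time, and the GSI library numbered 2 was the lowest of its group both times. DDIT4 rose by 2.31 ± 0.38 at 12 h (limma adjusted p = 0.00311) and by 1.48 ± 0.38 at 48 h (limma adjusted p = 0.0313). The 12 h call held when any 1 of the 12 libraries was left out, with differences from 2.05 to 2.73 and adjusted p from 0.000627 to 0.0212. The 48 h call was lost in 5 of those 12 cases, without each DMSO 48 h library in turn or without the GSI 48 h libraries numbered 1 or 3, with adjusted p up to 0.143. Without both GSI libraries numbered 3 DDIT4 differed by 2.05 at 12 h and 1.18 at 48 h, and only the first was called.

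VLDLR (ENSG00000147852), a lipoprotein receptor that ATF4 and the hypoxia factors are both known to induce, read 1117, 1300 and 1156 in DMSO and 3587, 1835 and 9827 in GSI at 12 h. The 48 h values were 1513, 1713 and 1471 in DMSO and 2516, 1480 and 4856 in GSI. Every GSI library exceeded every DMSO library at 12 h, whereas at 48 h the GSI library numbered 2 fell among the DMSO libraries. VLDLR rose by 1.76 ± 0.48 at 12 h (limma adjusted p = 0.0223). That call was lost in 5 of 12 cases with 1 library left out, without any of the DMSO 12 h libraries or without the GSI 12 h libraries numbered 1 or 3, with adjusted p up to 0.0720. It was called at 1.11 without both GSI libraries numbered 3. At 48 h its difference was 0.75 ± 0.48 (limma adjusted p = 0.313).

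Both CHAC1 and SESN2 had non-overlapping groups at 12 h but a spread too large for a call by limma with all libraries. CHAC1, which degrades glutathione and is among the most inducible ATF4 targets, read 40.7, 39.0 and 51.3 in DMSO and 209.9, 70.9 and 2580 in GSI at 12 h, then 42.0, 37.0 and 58.4 in DMSO and 34.4, 41.6 and 1858 in GSI at 48 h. The GSI library numbered 3 was 18.4 times the mean of the other 2 at 12 h and 48.9 times at 48 h, the largest such ratios among the members. At 48 h the other 2 lay within or below the DMSO range. Its difference was 2.94 ± 1.34 at 12 h (limma adjusted p = 0.130). Without both GSI libraries numbered 3 limma called it higher, by 1.47 ± 0.40 (adjusted p = 0.0428), with a smaller difference but a smaller standard error. On recovered reads edgeR and DESeq2 also called CHAC1 at 12 h with all libraries, at adjusted p of 0.0486 and 0.0119.

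SESN2, a leucine sensor that holds back mTORC1, read 826, 1105 and 998 in DMSO and 1535, 1641 and 10363 in GSI at 12 h. Its values at 48 h were 919, 1053 and 1058 in DMSO and 1352, 1256 and 5587 in GSI. Groups did not overlap at either time. The difference was 1.61 ± 0.64 at 12 h (limma adjusted p = 0.0849) and 1.07 ± 0.64 at 48 h (limma adjusted p = 0.277), and without both GSI libraries numbered 3 the 12 h value of 0.71 ± 0.14 was called (limma adjusted p = 0.0186).

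The other effectors had overlapping groups at 12 h. TRIB3, a pseudokinase that damps ATF4, had 4350, 5079 and 13483 in GSI against 4498 to 5718 in DMSO at 12 h. PPP1R15A, the GADD34 subunit that brings a phosphatase to eIF2, had 3153, 2481 and 6572 against 2584 to 3548. XPOT, the tRNA exporter, had 23419, 26471 and 45063 against 28609 to 32759. In each the library numbered 3 was above the DMSO range and at least 1 of the other 2 below it. STC2, a secreted glycoprotein induced in this response, gave 8, 0 and 18 recovered reads in GSI at 12 h and 5, 0 and 3 at 48 h, against at most 1 in any DMSO library. It was not tested, and both libraries numbered 2 had 0 reads.

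**Figure D2:**
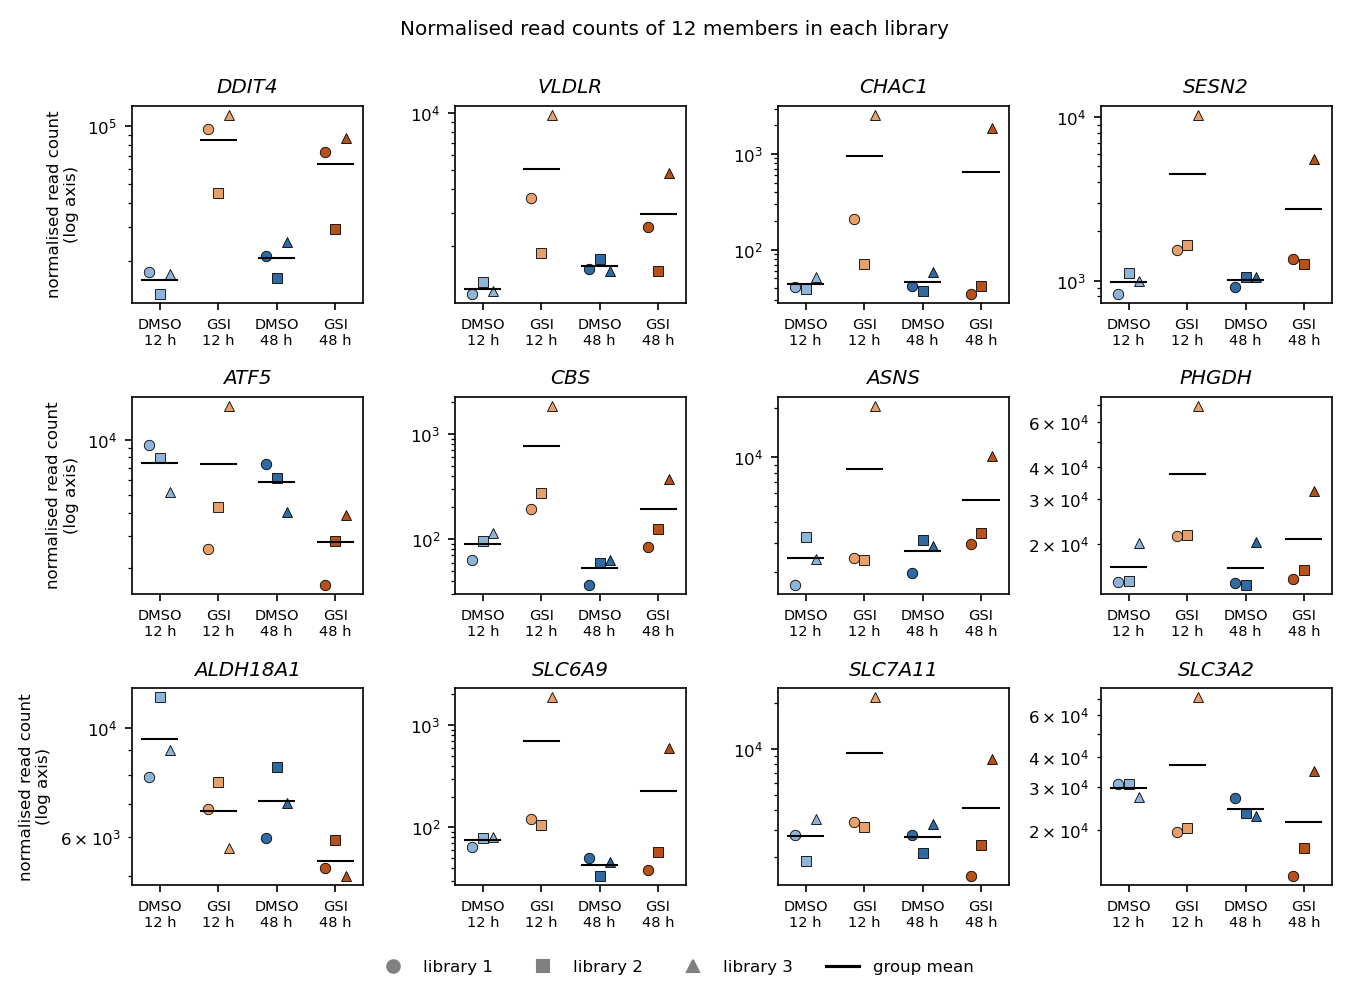
Normalised read counts on a log axis of 12 members in each library, by group, with a marker shape for each library number and a bar for the group mean. For DDIT4 every GSI library lies above every DMSO library at both times, while for CHAC1, SLC6A9, ASNS and SLC7A11 the triangle of library 3 pulls the GSI mean away from the other 2.

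Of the 9 serine, glycine and one-carbon enzymes limma called 0 at either time with all libraries (2 and 1 at an unadjusted p under 0.05 at 12 and 48 h, and 0 by edgeR and by DESeq2), with group medians of 0.34 at 12 h and 0.11 at 48 h, and 0.00 and −0.15 without both GSI libraries numbered 3. PHGDH, which starts serine synthesis from a glycolytic intermediate, read 14213, 14326 and 20165 in DMSO and 21544, 21810 and 69307 in GSI at 12 h. At 48 h it read 14139, 13838 and 20431 in DMSO and 14678, 15816 and 32201 in GSI. At 12 h its groups did not overlap, by a narrow margin over the DMSO library numbered 3. The difference was 1.00 ± 0.39 (limma adjusted p = 0.0859), and 0.44 without both GSI libraries numbered 3. Without all 4 libraries numbered 3 limma called PHGDH higher at 12 h, by 0.60 (adjusted p = 0.0273).

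The following steps of serine synthesis showed the same shape without separation of the groups. PSAT1, the aminotransferase, read 6758, 7243 and 31872 in GSI at 12 h against 5912 to 7669 in DMSO. PSPH, the phosphatase that yields serine and whose reads may be shared with a near-identical copy, read 2581, 3146 and 5807 against 2141 to 3632. The mitochondrial branch, which passes the carbon of serine to folate, followed. SHMT2 read 18803, 19552 and 57504 in GSI at 12 h against 12546 to 19285, MTHFD2 read 8860, 9832 and 33913 against 8880 to 13529, and MTHFD1L read 3223, 3117 and 8059 against 2464 to 4452. In these genes the GSI library numbered 3 was 2.03 to 4.55 times the mean of the other 2.

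The cytosolic folate enzymes did not share this. SHMT1 read 9093, 9555 and 8658 in GSI at 12 h and 7880 to 8804 in DMSO, with library 3 the lowest of its group. MTHFD1 read 27573, 32220 and 29440 in GSI against 30734, 40154 and 44940 in DMSO at 12 h, and 22307, 28173 and 25976 against 28593, 32248 and 40042 at 48 h. All GSI libraries at 48 h lay below all DMSO libraries, by −0.39 ± 0.15 (limma adjusted p = 0.1004). ALDH1L2, a mitochondrial folate enzyme, was low throughout, at 15.6 to 32.2, with a difference of −0.22 ± 0.28 at 12 h (limma adjusted p = 0.605).

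Among the enzymes for asparagine, proline, alanine, aspartate and cysteine, limma called 2 of 6 kept higher and 1 lower at 12 h. Of all genes 10.1% were called higher and 11.4% lower. At 48 h it called 0 (3 at an unadjusted p under 0.05, 0 by edgeR and 1 by DESeq2, CTH), against 9.68% of all genes. CBS (ENSG00000160200) and CTH (ENSG00000116761) carry out the 2 steps that make cysteine from homocysteine. CBS read 63.7, 95.9 and 113.2 in DMSO and 192.4, 273.3 and 1840 in GSI at 12 h, then 36.5, 59.1 and 62.9 in DMSO and 84.0, 124.0 and 375.1 in GSI at 48 h. These groups did not overlap. CBS rose by 2.36 ± 0.70 at 12 h (limma adjusted p = 0.0304), and by 1.37 without both GSI libraries numbered 3. The call was lost in 3 of 12 cases with 1 library left out, those with number 1 or 2 of DMSO 12 h or number 3 of GSI 12 h removed, with adjusted p up to 0.0930.

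CTH was the member in which the GSI libraries were most alike among those called higher. It read 69.0, 131.9 and 150.3 in DMSO and 192.4, 194.9 and 251.2 in GSI at 12 h, then 62.7, 97.4 and 141.4 in DMSO and 184.6, 164.8 and 194.2 in GSI at 48 h. Every GSI library exceeded every DMSO library at both times, and the DMSO library numbered 1 was the lowest. CTH rose by 0.92 ± 0.31 at 12 h (limma adjusted p = 0.0490), and its difference at 48 h was 0.92 ± 0.31 (limma adjusted p = 0.0733). The 12 h call was lost in 9 of 12 cases with 1 library left out and was not made by edgeR (adjusted p = 0.0540), so it lies at the threshold.

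ALDH18A1 (ENSG00000059573), which makes the first intermediate of proline from glutamate, was the member called lower. It read 7938, 11532 and 9013 in DMSO and 6845, 7734 and 5697 in GSI at 12 h, then 5977, 8321 and 7018 in DMSO and 5181, 5917 and 4981 in GSI at 48 h. Groups did not overlap at either time, and the GSI library numbered 3 was the lowest of its group. It fell by 0.48 ± 0.16 at 12 h (limma adjusted p = 0.0420). This call was lost in 7 of 12 cases with 1 library left out, with adjusted p up to 0.177, and its value was −0.37 without both GSI libraries numbered 3. At 48 h the difference was −0.40 ± 0.16 (limma adjusted p = 0.110).

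ASNS, the asparagine synthetase, rested on 1 GSI library at 12 h. It read 1651, 3264 and 2387 in DMSO and 2436, 2346 and 20497 in GSI at 12 h, and 1966, 3122 and 2875 in DMSO and 2949, 3446 and 10127 in GSI at 48 h. The library numbered 3 was 8.57 times the mean of the other 2 at 12 h and 3.17 times at 48 h. The difference was 1.06 ± 0.68 at 12 h (limma adjusted p = 0.275), and 0.03 without both GSI libraries numbered 3. PYCR1, the last enzyme of proline synthesis, read 2579, 2982 and 5186 in GSI at 12 h against 1996 to 3510 in DMSO. GOT1 stayed between 3654 and 5073 in all 12 libraries. GPT2, the mitochondrial alanine aminotransferase, had 1 to 13 recovered reads per library and was not tested.

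Of the 10 amino acid transporters limma called 0 at either time with all libraries (0 at an unadjusted p under 0.05, and 0 by edgeR and by DESeq2), with group medians of 0.15 at 12 h and 0.02 at 48 h. Without both GSI libraries numbered 3 the medians were −0.25 and −0.34. In that fit 5.18% of all genes were called lower at 12 h and 0.42% at 48 h, and 1 transporter at each time. That was SLC3A2 (CD98hc), the heavy chain shared by several exchangers, which read 30834, 30916 and 27337 in DMSO and 19539, 20327 and 71189 in GSI at 12 h. At 48 h it read 26998, 23381 and 22747 in DMSO and 12754, 16766 and 34993 in GSI. In each GSI group 2 libraries lay below every DMSO library and the library numbered 3 above them all. The difference was 0.04 ± 0.42 at 12 h and −0.31 ± 0.42 at 48 h with all libraries (limma adjusted p = 0.957 and 0.648), and −0.57 ± 0.12 and −0.73 ± 0.12 without both libraries (limma adjusted p = 0.0225 and 0.0314).

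In 2 light chains that pair with SLC3A2, library 3 was again above every DMSO library at 12 h. SLC7A5 (LAT1), which brings in leucine and whose reads may be shared with pseudogene copies, read 22078, 22274 and 84168 in GSI at 12 h against 22461 to 28653 in DMSO, so the other 2 libraries lay just below the DMSO range. SLC7A11 (xCT), which imports cystine in exchange for glutamate, read 2781, 1876 and 3486 in DMSO and 3336, 3124 and 21689 in GSI at 12 h, then 2746, 2098 and 3249 in DMSO and 1488, 2369 and 8575 in GSI at 48 h. At 12 h its other 2 GSI libraries lay within the DMSO range. Its library numbered 3 was 6.71 times the other 2 at 12 h and 4.45 times at 48 h, and the difference at 12 h was 1.21 ± 0.68 (limma adjusted p = 0.214).

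SLC6A9 (GLYT1), a glycine transporter, had the second largest ratios after CHAC1. It read 64.6, 78.9 and 80.5 in DMSO and 120.5, 105.0 and 1871 in GSI at 12 h, then 49.98, 33.1 and 46.0 in DMSO and 38.2, 57.9 and 590.5 in GSI at 48 h. Groups were separate at 12 h, though the difference of 1.94 ± 1.02 was not called (limma adjusted p = 0.184), and they overlapped at 48 h. SLC43A1 (LAT3), another leucine carrier, read 704, 767 and 3228 in GSI at 12 h against 528 to 941 in DMSO.

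The carriers of glutamine, alanine, serine and arginine moved little beyond library 3. At 12 h SLC1A5 (ASCT2) read 15018, 16623 and 34441 in GSI against 18629 to 21792 in DMSO, SLC1A4 (ASCT1) read 5618, 6490 and 12473 against 6601 to 7810, and SLC7A1, the arginine carrier, read 20606, 20835 and 38764 against 21888 to 27777. SLC38A1 read 16193, 14901 and 24213 against 17672 to 19752. In these 4 genes the GSI libraries numbered 1 and 2 lay below every DMSO library and library 3 above. SLC38A2, the SNAT2 carrier induced by amino acid shortage, stayed between 49160 and 74435 in all 12 libraries.

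Counted over all members at 12 h, groups did not overlap for 8 members higher and 1 lower in GSI, against 17.1% and 19.3% of all genes. With the GSI library numbered 3 left out of that count, 9 were higher and 9 lower, against 21.2% and 23.9%. The 9 higher were DDIT4, CHAC1, SESN2, VLDLR, PHGDH, SHMT1, CTH, CBS and SLC6A9, and the 9 lower were ATF5, XPOT, ALDH18A1 and the 6 transporters SLC7A5, SLC3A2, SLC1A5, SLC1A4, SLC38A1 and SLC7A1. At 48 h the counts were 4 higher and 5 lower (16.9% and 18.5% of all genes). Without the GSI library numbered 3 they were 4 higher (DDIT4, SESN2, CTH and CBS) and 13 lower, against 19.9% and 21.4% of all genes.

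**Figure D3:**
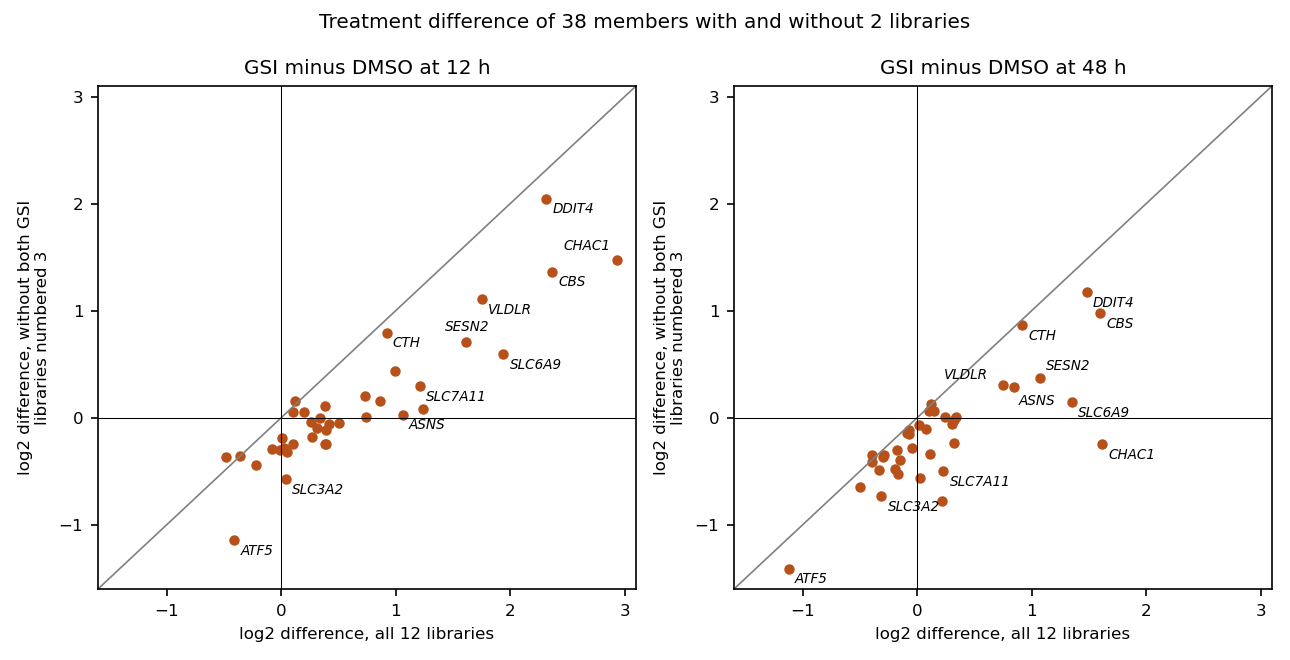
Each point is a member, with its GSI minus DMSO difference (log2) over all 12 libraries on the x axis and without both GSI libraries numbered 3 on the y axis, at 12 h on the left and 48 h on the right. Points below the diagonal, 35 of 38 at 12 h and 36 at 48 h, are members whose difference was lower without those libraries, and DDIT4, CBS, VLDLR and CTH stay above 0 at both times.

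At 48 h the replicate numbers pair the libraries weakly by the check given with the methods (correlations of 0.103 to 0.157). A fit with the number as a block called 5 members at 48 h against 27.3% of all genes. Its block was shared by all 12 libraries, of both treatments and times, so it is not a paired test of the 48 h libraries alone. How far the pairing over time adds to these calls was not tested. DDIT4 (1.48), CBS (1.60) and CTH (0.92) were higher, with limma adjusted p of 0.00122, 0.0253 and 0.0135. ALDH18A1 and MTHFD1 were lower, by −0.40 and −0.39 (limma adjusted p = 0.0114 and 0.0120). Every number occurs in every group, so this block leaves the differences themselves as they are and changes only their standard errors. The equal values of these 5 genes in the fit without a block are therefore no further support, and there only DDIT4 was called.

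Between 12 and 48 h within a treatment, limma without a block called 0 members in DMSO (2 at an unadjusted p under 0.05), against 4.53% of all genes, and edgeR and DESeq2 called 0 (4.83% and 8.13% of all genes). In GSI it called 0 (8 at an unadjusted p under 0.05), against 3.98% of all genes. There edgeR called 0 (3.84% of all genes) and DESeq2 called 2 lower, PYCR1 and XPOT (6.52% of all genes). Libraries of 1 treatment that share a number are paired over time by the check given with the methods, so each number was also entered as a block within treatment. With that block 32 of 38 members changed in GSI, 31 lower and 1 higher, while 28.8% of all genes were called and 16.1% called lower. In DMSO 13 changed, 10 lower and 3 higher, against 29.2% called and 15.2% called lower. The GSI count did not rest on the libraries numbered 3: without all 4 of them it was 32, with 29 lower (25.9% of all genes called). Without those numbered 1 or 2 it was 28 and 30, each of them lower (13.9% and 22.1% of all genes called).

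The falls in GSI ran through every role: 5 of 6 stress factors, 7 of 7 effectors, 7 of 9 serine and one-carbon enzymes, 4 of 6 enzymes of the other amino acids and 8 of 10 transporters. MTHFD1L, the mitochondrial formate-releasing enzyme, had log2 changes of −1.25, −0.88 and −1.55 in the GSI pairs 1, 2 and 3, and fell by 1.23 ± 0.10 (limma adjusted p = 8.84e-06). It also fell in DMSO, by 0.77 ± 0.10 (limma adjusted p = 0.000218). CBS fell by 1.54 ± 0.19 in GSI and by 0.77 ± 0.19 in DMSO (limma adjusted p = 0.000168 and 0.0107), and PYCR1 by 0.94 ± 0.08 and 0.75 ± 0.08 (limma adjusted p = 1.68e-05 and 7.26e-05). SLC7A5 fell by 0.72 ± 0.06 in GSI and by 0.35 ± 0.06 in DMSO, and ATF4 by 0.37 ± 0.05 and 0.23 ± 0.05. The other 5 that fell in DMSO were ALDH18A1, MTHFD1, MTHFD2, SLC6A9 and SLC7A1.

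The member that rose in GSI was SLC38A2, by 0.18 ± 0.05 (limma adjusted p = 0.0237), and it rose in DMSO as well, by 0.23 ± 0.05. DDIT4 and VLDLR changed in opposite directions in the 2 treatments. DDIT4 rose by 0.37 ± 0.06 in DMSO and fell by 0.47 ± 0.06 in GSI (limma adjusted p = 0.00101 and 0.000235), and VLDLR rose by 0.39 ± 0.10 and fell by 0.61 ± 0.10 (limma adjusted p = 0.0124 and 0.00103). The 6 members without a call in GSI were ALDH1L2, ASNS, CEBPG, CTH, SHMT1 and SLC38A1. ASNS changed by 0.28, 0.56 and −1.02 in the 3 GSI pairs, and without all 4 libraries numbered 3 it was called higher at 48 h than at 12 h, by 0.42 (limma adjusted p = 0.0026). Counted by pair, 32 of 38 members were lower at 48 h in all 3 GSI pairs, against 26.8% of all genes, and 24 of 38 in all 3 DMSO pairs, against 31.7%. The member medians were −0.42, −0.33 and −0.99 in the GSI pairs 1, 2 and 3, and −0.12, −0.28 and −0.12 in the DMSO pairs.

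**Figure D4:**
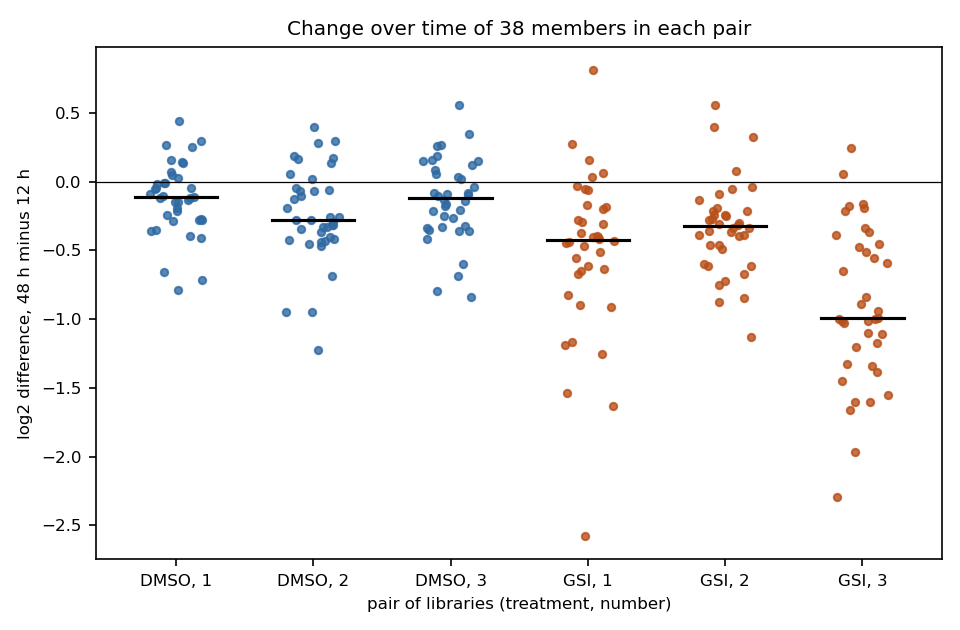
Each point is a member, with its log2 difference between the 48 h and the 12 h library of the same treatment and number, and bars mark the median of the 38. Medians are below 0 in all 6 pairs, and the GSI pair numbered 3 is the lowest at −0.99.

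The change of the treatment difference with time was called for 0 members without a block (0 at an unadjusted p under 0.05), against 0.0% of all genes, and edgeR and DESeq2 called 0 (0.0% and 0.322% of all genes). With the block within treatment it was called for 8, all lower at 48 h, against 6.1% of all genes called and 4.12% called lower. They were the stress factors ATF3, CEBPB and DDIT3, the effectors DDIT4 and VLDLR, the serine enzyme PHGDH and the transporters SLC7A11 and SLC7A5. The count was 2, 10 and 6 without all 4 libraries numbered 1, 2 and 3, against 1.91%, 2.3% and 3.34% of all genes.

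The genes around the members were read from lists chosen with earlier results known. Of the eIF2 kinases, eIF2 subunits and regulators, 14 were kept, and 0 were higher and 7 lower at 12 h, against 10.1% of all genes higher and 11.4% lower, with a median of −0.23 (log2). The alpha subunit EIF2S1, the site of phosphorylation, fell from 22416 ± 2225 to 15024 ± 1835 (SD, n = 3; −0.58, limma adjusted p = 0.00598). GCN1, which activates the amino acid-sensing kinase, fell by 0.47, and EIF2AK2 (PKR) by 0.36. The kinases EIF2AK3 (PERK) and EIF2AK4 (GCN2) were not called at either time, with 12 h differences of 0.06 ± 0.11 and 0.17 ± 0.12. The counts were 2 lower and 1 higher without both GSI libraries numbered 3, against 5.18% of all genes lower and 5.15% higher.

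Of 16 other ATF4-linked genes kept, 6 were higher and 1 lower at 12 h, beside the same shares of 10.1% and 11.4% over all genes. ADM2, a secreted peptide of the adrenomedullin family, read 88.5, 63.9 and 83.1 in DMSO and 305.2, 240.4 and 1801 in GSI, and rose by 2.70 ± 0.61 (limma adjusted p = 0.0103). PCK2, the mitochondrial PEP carboxykinase, read 1434, 1553 and 1987 in DMSO and 3396, 3120 and 13126 in GSI, and rose by 1.66 ± 0.46 (limma adjusted p = 0.0241). For both genes the groups were separate and library 3 was the highest, as among the members. KDM7A, a histone demethylase, rose by 2.36 ± 0.49, but its 12343, 3303 and 13180 in GSI put the library numbered 2 apart instead. Without both GSI libraries numbered 3, 4 of the 16 were called higher and 0 lower (5.15% and 5.18% of all genes).

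Lists of neighbouring metabolism are given by their counts at 12 h, beside 10.1% of all genes called higher and 11.4% called lower. Of 19 other serine, folate and methionine cycle genes 2 were higher and 5 lower, among them the folate carriers SLC19A1 (−0.55) and SLC25A32 (−0.53) and the S-adenosylmethionine synthetase MAT2A (−0.51). Of 14 other glutamine, aspartate, proline and branched-chain genes 2 were higher and 4 lower. Glutamine synthetase (GLUL) rose from 8067 ± 570.5 to 15448 ± 3479 (SD, n = 3; 0.92, limma adjusted p = 0.00343), argininosuccinate lyase (ASL) rose by 1.19, and ornithine aminotransferase (OAT) fell by 0.70. Of 17 other amino acid transporters 1 was higher, the arginine carrier SLC7A3 (1.12), and 3 were lower, among them SLC7A6 (−0.59) and SLC43A2 (−1.18). The median difference was −0.20, −0.21 and −0.14 in the 3 lists, against 0.00 over all genes and 0.38 over the members.

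The other arms of the unfolded protein response, ATF6 and IRE1, had 0 of 16 genes called by limma at either time (3 and 5 at an unadjusted p under 0.05 at 12 and 48 h, with 2 and 0 called by edgeR and 2 and 2 by DESeq2). The smallest p at 12 h was that of ERN1, the gene of IRE1 itself (0.56 ± 0.19, limma adjusted p = 0.0549). HSPA5, the chaperone BiP, read 35163, 25272 and 40396 in DMSO and 23594, 40989 and 20366 in GSI at 12 h, with library 3 the lowest of its group. Taken against the mean DMSO library of the same time, GSI 12 h libraries 1, 2 and 3 had list medians of −0.17, 0.23 and −0.10. The member median was −0.07, 0.01 and 1.22 in the same libraries.

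Hypoxia-induced genes, a list chosen because it was known to have risen in these data, gave another order of the libraries. It held 19 genes, 18 called higher at 12 h and 11 at 48 h (10.1% and 4.33% of all genes). Its per-library medians were 3.20, 1.67 and 3.30 for GSI 12 h libraries 1, 2 and 3, and 2.47, 0.78 and 2.10 at 48 h. Here library 2 was the lowest at both times and library 1 was close to library 3. Among the 38 members, library 1 was the lowest of the GSI 12 h group for 25, library 2 for 11 and library 3 for 2, against 27.6%, 35.8% and 36.6% of all genes. DDIT4, with 96054, 44650 and 114185, and VLDLR, with 3587, 1835 and 9827, had library 2 lowest, whereas CBS, with 192.4, 273.3 and 1840, had library 1 lowest. These 3 examples were chosen after their values were seen. The 11 members with library 2 lowest also held ATF3, CHAC1, ASNS, SLC7A11 and SLC6A9, so that place of library 2 is not particular to DDIT4 and VLDLR. At 48 h the member median was −0.34, −0.06 and 0.49 in libraries 1, 2 and 3. The part of the hypoxia genes in the members' values was not tested.

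The core letters of the hypoxia response element were looked for because DDIT4 was the member with the firmest call. The sequence ACGTG occurred, on either strand, in the window of 11 of 34 members (32.4%) against 24.9% of all genes, and GCGTG in 25 (73.5%) against 40.6%. Counted by window these were 25.0% against 21.4%, and 64.3% against 36.5%. ACGTG is also part of the E-box CACGTG, which was present for 7 members (20.6%) against 8.77%, or 17.9% against 7.26% by window. The DDIT4 promoter holds the first of these 125 bases before its start, at chr10:72273788-72273814 on the plus strand, shown with the core in capitals.
DDIT4: gaacgttgcttACGTGcgcccggagtc

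**Figure D5:**
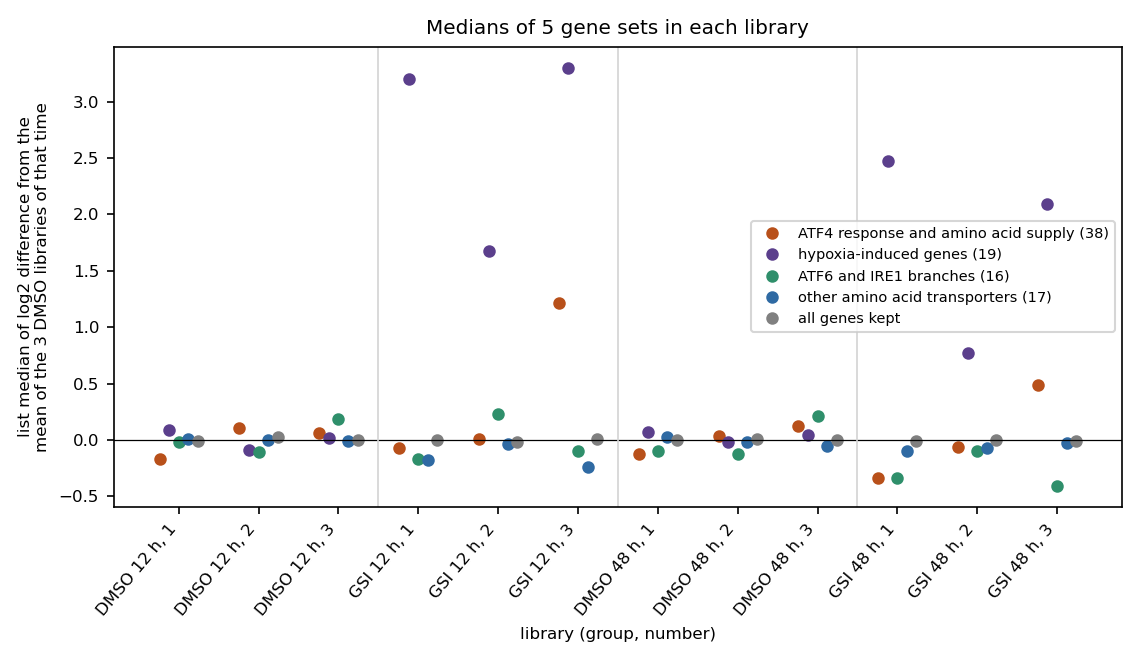
Each point is the median, over the genes of a list, of the log2 difference between 1 library and the mean of the 3 DMSO libraries of the same time, for the 38 members and 3 other lists beside all genes kept. The members stand at 1.22 in the GSI 12 h library numbered 3 and near 0 in the other 2, while hypoxia-induced genes stand at 3.20, 1.67 and 3.30 in the same group.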

How the data were processed

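Poly-A RNA sequencing of 12 libraries (DMSO or 1 µM Compound E, 12 or 48 h, 3 each) was analysed. The deposited signal values are the authors' gene read counts divided by a size factor of each library. The submitters' processing notes name the build hg19 with TopHat2 2.0.10, HTSeq 0.6.1, FastQC 0.10.1 and DESeq2, and whether counting used strand is not given in the sources used here. Whole reads were recovered from the steps between values: 100.0% of values came out whole within 0.01.

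Values were tested as log2(value + 1), which understates changes of low genes, with limma 3.58.1 (trend, R 4.3.3) over all 12 libraries, after keeping genes with at least 10 in 3 libraries. P-values were adjusted over all 19281 genes by the Benjamini-Hochberg method and called under 0.05. Only the limma fit without a block was run on simulated reads, for the comparisons between groups. The fits with a block, the change of the treatment difference with time, edgeR and DESeq2 were not run on them. Recovered reads were tested with edgeR 4.0.16 and DESeq2 1.42.0, both as alternatives. Other alternatives were the pseudocount, filter, scaling, groups fitted, replicate block and left-out libraries. Members and lists were chosen with earlier results of these data known. Values per library are given for members called in a treatment comparison or central to their group, and other lists name up to 3 genes with the smallest p.

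Same-numbered libraries were checked for shared deviations from their group means. The correlations over time were 0.545 to 0.612 in DMSO and 0.4 to 0.545 in GSI, and those between DMSO and GSI were 0.103 to 0.157 at 48 h. At 12 h they were 0.068 to 0.272. Libraries of different numbers reached at most 0.139 at 12 h, inside the range of the same-numbered ones, and at most 0.05 at 48 h. Over time they reached at most −0.176 in DMSO and −0.097 in GSI. Numbers were therefore taken to pair libraries in the first 3 cases only, and only weakly at 48 h. RefSeq promoters (GRCh38.p14) were searched for motifs.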

Additional observations from a re-analysis of the deposited data

Results flagged for a closer look

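For 8 members the GSI minus DMSO difference changed between 12 and 48 h by the test of that change itself, in the fit with the replicate number as a block within treatment. All were lower at 48 h (log2, limma adjusted p), while 6.1% of all genes were called and 4.12% called lower. The count was 2 without all 4 libraries numbered 1, 10 without those numbered 2 and 6 without those numbered 3. DDIT4 changed by −0.83 (0.000621) and VLDLR by −1.01 (0.00266). PHGDH changed by −0.69 (0.0120) and SLC7A11 by −0.98 (0.0133). The stress factors CEBPB and DDIT3 changed by −0.67 and −0.92 (0.0304 each), and ATF3 by −1.03 (0.0406). SLC7A5 changed by −0.37 (0.0343). Without a block limma called 0 of these.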

How the results depend on the processing

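Among member values past the threshold with or without an alternative, 2 changed sign between treatments and 1 over time. Values short of it under both, such as SLC7A5 at 12 h, changed sign in 55 pairs of member and alternative at 12 h and 49 at 48 h, 31 over time in DMSO, 21 in GSI and 77 for the change with time. SLC3A2 at 12 h, 0.04 with all libraries, was −0.632 without all 4 libraries numbered 3 and −0.573 without both GSI libraries numbered 3. ASNS over time in GSI was 0.415 with the replicate block within treatment and no libraries numbered 3. The number of members called at 12 h was 3 with no filter, 3 with only the groups compared and 11 with the replicate block, which added PHGDH, SHMT2, ATF4, CHAC1 and SESN2 (higher) and MTHFD1 (lower) and whose numbers are not shown to pair libraries at that time (1 of 3 DMSO libraries, number 1, correlated better with another number). It ran from 1 to 7 with 1 library left out. At 48 h it was 3 by DESeq2, 4 with only the groups compared, 5 with the replicate block, 2 without all 4 libraries numbered 3 and 2 without both GSI libraries numbered 2, and from 0 to 3 with 1 library left out. Over time in DMSO it was 13 with the replicate block within treatment, 11, 12 and 21 with that block and no libraries numbered 1, 2 or 3, and 3 with the plain replicate block. In GSI the same counts were 32, then 28, 30 and 32, and 5, with 2 by DESeq2 and 1 without all 4 libraries numbered 3. For the change of the treatment difference with time they were 8, then 2, 10 and 6. Without a block, the counts for these 3 comparisons stayed at 0 when single libraries were left out. The cause of these moves was not tested. The block at 48 h and the block within treatment over time changed no call of a member beyond those the report names. The alternatives that leave out all libraries of 1 number, or both GSI libraries numbered 3, were added after the data were seen. With 3 libraries a group, genes whose GSI libraries differ among themselves, such as CHAC1 and SLC6A9, carry large standard errors, and STC2 and GPT2 had too few reads for a test.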

Other observations

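Genes of amino acid sensing by mTORC1, beside the member SESN2, were measured for 15 listed genes. Limma called 2 higher and 0 lower at 12 h, and 0 higher and 1 lower at 48 h. Of all genes 10.1% were higher and 11.4% lower at 12 h, and 4.33% and 5.35% at 48 h, so these counts are near the background. SESN3, a sestrin like SESN2, read 717, 642 and 487 in DMSO and 1018, 933 and 865 in GSI at 12 h, and rose by 0.62 ± 0.21 (log2 ± SE, limma adjusted p = 0.0464). Its GSI library numbered 3 was the lowest of its group, unlike that of SESN2. CASTOR1, an arginine sensor, read 38.9, 32.0 and 53.9 in DMSO and 87.5, 51.9 and 81.9 in GSI at 12 h, and rose by 0.81 ± 0.25 (limma adjusted p = 0.0370). Its groups overlapped through the GSI library numbered 2. RPTOR, a core part of mTORC1, was the gene called lower at 48 h, by −0.29 (limma adjusted p = 0.0352). MTOR itself differed by −0.23 ± 0.08 at 12 h (limma adjusted p = 0.0512).
Of 11 genes of T-cell leukaemia identity 0 were higher and 5 lower at 12 h, among them NOTCH1 (−0.67), RAG1 (−0.52) and CD3G (−0.43), and 1 was higher and 2 lower at 48 h, beside the shares over all genes given above.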
